A study of Mus musculus with 16 samples.

Results

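The solute carriers are the membrane proteins that move sugars, amino acids, ions, metals, vitamins and metabolites across the plasma membrane and the membranes of organelles. The genes described here are the well expressed ones in mouse embryonic stem cells (ESCs), chosen by their level in nuclear RNA-seq. Each deposited RefSeq entry was given a gene symbol, and the entry with the highest mean normalized count was kept for each symbol. Symbols that start with Slc and a number were then kept where this mean was at least 100 in all 3 deposited tables. This gave 212 genes of 354 measured solute carrier genes, and of 19337 genes with a symbol in the whole series. Because the mean chose the members, every level and count below is a description with no test.

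The libraries came from nuclei of ESCs in 4 groups with 4 libraries each. PRC1-null cells were Ring1a-/-;Ring1bfl/fl ESCs treated with 4-hydroxytamoxifen at 800 nM for 72 h, which removes RING1B. PRC2-null cells carried Eed-/- in the same background and were left untreated, and PRC1/2-null cells were that Eed-/- line after the same treatment. Wild-type cells were the untreated Ring1a-/-;Ring1bfl/fl line, so all 4 groups, wild type included, lacked RING1A (the study also writes Ring1 for Ring1a and Rnf2 for Ring1b), and the Eed-/- cells carried the label of 1 clone. The level used here is the authors' mean of the normalized counts over all 16 libraries, which has no spread and no value for a single library or group. The depth of each library is unknown for the same reason, and no difference between PRC1-null, PRC2-null, PRC1/2-null and wild-type cells was tested for these genes. The mean of a gene therefore mixes wild-type and null cells. Markers of the labelled cell type were present, as all 10 pluripotency genes examined were at 100 or more, with means between 568 for Utf1 and 14465 for Tfcp2l1. Of 10 fibroblast and feeder genes, 4 reached 100, namely Vim at 306, Pdgfrb at 162, Twist2 at 132 and Thy1 at 128. Col1a2 and Col1a1 were at 70.3 and 51.5, while Col3a1, Dcn and Postn were between 1.0 and 1.4 and Lum was at 0.28.

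Solute carriers work mostly as secondary transporters or facilitators. They use concentration gradients rather than ATP, and the sodium and potassium gradients that many of them draw on are made by the P-type ATPases of the plasma membrane. Some act in pairs, with a light chain from the Slc7 family that does the transport and a heavy chain from the Slc3 family that brings it to the cell surface. ESCs divide rapidly, use glycolysis heavily and depend on glucose and glutamine from the medium. Polycomb complexes bind mainly at promoters rich in CpG dinucleotides, which is why the CpG content of the genes' starts is given here.

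The promoters of 4 of the 9 members above 5000 are shown because they are the 2 highest with a CpG-rich window and the 2 highest with a CpG-poor one, among members whose window held the transcript start. Each is the RefSeq window on GRCm38.p6 from 250 bases before to 50 bases after a gene start, read 5′ to 3′ on the gene's strand. Capitals mark CG dinucleotides. Slc2a1 (chr4:119108495-119108794, plus strand) and Slc44a1 (chr4:53440163-53440462, plus strand) had observed over expected CpG ratios of 0.605 and 0.925. Slc38a4 (chr15:97055907-97056206, minus strand) and Slc25a13 (chr6:6217124-6217423, minus strand) had ratios of 0.238 and 0.540, under the 0.6 used here for a CpG-rich window. Over the first 300 nt of their transcripts, the measure used for the whole set below, Slc38a4 and Slc25a13 had ratios of 0.69 and 0.85, so there both were above 0.6.
Slc2a1: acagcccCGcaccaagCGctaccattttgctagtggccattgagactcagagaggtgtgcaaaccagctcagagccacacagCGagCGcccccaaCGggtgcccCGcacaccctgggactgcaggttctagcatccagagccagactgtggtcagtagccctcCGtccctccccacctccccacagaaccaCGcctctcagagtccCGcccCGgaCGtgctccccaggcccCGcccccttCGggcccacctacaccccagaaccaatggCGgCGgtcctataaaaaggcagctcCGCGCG
Slc44a1: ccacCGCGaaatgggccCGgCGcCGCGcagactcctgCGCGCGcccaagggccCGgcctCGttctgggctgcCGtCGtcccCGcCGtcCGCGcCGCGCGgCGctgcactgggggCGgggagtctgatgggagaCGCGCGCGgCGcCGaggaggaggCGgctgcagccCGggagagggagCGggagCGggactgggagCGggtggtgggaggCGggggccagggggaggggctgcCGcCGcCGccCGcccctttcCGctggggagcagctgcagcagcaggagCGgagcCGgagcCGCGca
Slc38a4: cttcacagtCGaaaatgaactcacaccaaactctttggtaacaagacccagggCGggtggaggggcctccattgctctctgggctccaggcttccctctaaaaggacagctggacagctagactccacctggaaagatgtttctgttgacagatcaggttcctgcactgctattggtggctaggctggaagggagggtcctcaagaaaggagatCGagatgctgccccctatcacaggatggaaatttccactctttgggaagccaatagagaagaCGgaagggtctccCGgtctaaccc
Slc25a13: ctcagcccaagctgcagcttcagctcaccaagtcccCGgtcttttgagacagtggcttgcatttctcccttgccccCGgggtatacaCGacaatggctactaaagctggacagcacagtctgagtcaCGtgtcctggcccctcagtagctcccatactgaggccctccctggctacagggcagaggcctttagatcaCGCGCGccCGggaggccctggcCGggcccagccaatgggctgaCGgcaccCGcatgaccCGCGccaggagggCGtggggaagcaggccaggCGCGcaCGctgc
The windows held 18 CG dinucleotides for Slc2a1, 43 for Slc44a1, 5 for Slc38a4 and 17 for Slc25a13. On either strand, TATAAA was in the Slc2a1 window and in none of the other 3, GGGCGG was in the windows of Slc2a1, Slc44a1 and Slc38a4, and CCAAT was in those of Slc2a1, Slc38a4 and Slc25a13. Of 32851 RefSeq mouse promoter windows of this length, 13.6% held TATAAA, 35.7% held GGGCGG, 37.4% held CCAAT and 35.8% had a ratio of at least 0.6. These are letter matches and not known binding sites.

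The levels of the members ran over 194-fold, between 101 for Slc19a3, a thiamine transporter, and 19536 for Slc2a3, the neuronal and embryonic glucose transporter GLUT3. Their median was 512 with quartiles of 247 and 1307, against a median of 707 with quartiles of 306 and 1720 for the 11139 genes of the series at 100 or more. Of the members, 66 were at 1000 or more, 43 between 500 and 1000, and 103 between 100 and 500. A minimum of 100 was reached by 59.9% of solute carrier genes and by 57.6% of all genes with a symbol. Means under 10 were found for 64 of 354 solute carrier genes (18.1%), against 25.1% of all genes. The members together made up 1.32% of the summed mean counts of all entries. The 10 highest held 31.4% of the members' sum, and 24 genes held 50% of it.

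A pair of glucose transporters led the list. Slc2a3 stood at 19536 and was 2.32-fold above the next gene, Slc2a1 at 8416, which encodes GLUT1, the widely expressed glucose transporter. Next came the neutral amino acid transporters Slc38a4 at 7194, Slc38a1 at 6545 and Slc38a2 at 6390, with the choline transporter Slc44a1 at 7045 and the mitochondrial pyrimidine nucleotide carrier Slc25a36 at 6624 between them. The bicarbonate transporter Slc4a7 followed at 5320, the mitochondrial aspartate/glutamate carrier Slc25a13 at 5060 and the taurine transporter Slc6a6 at 4875. In all, 13 of the 354 measured solute carrier genes were in the top 5% of all genes, which held 967 of 19337. Their share there was thus smaller than that of all genes.

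**Figure D1:**
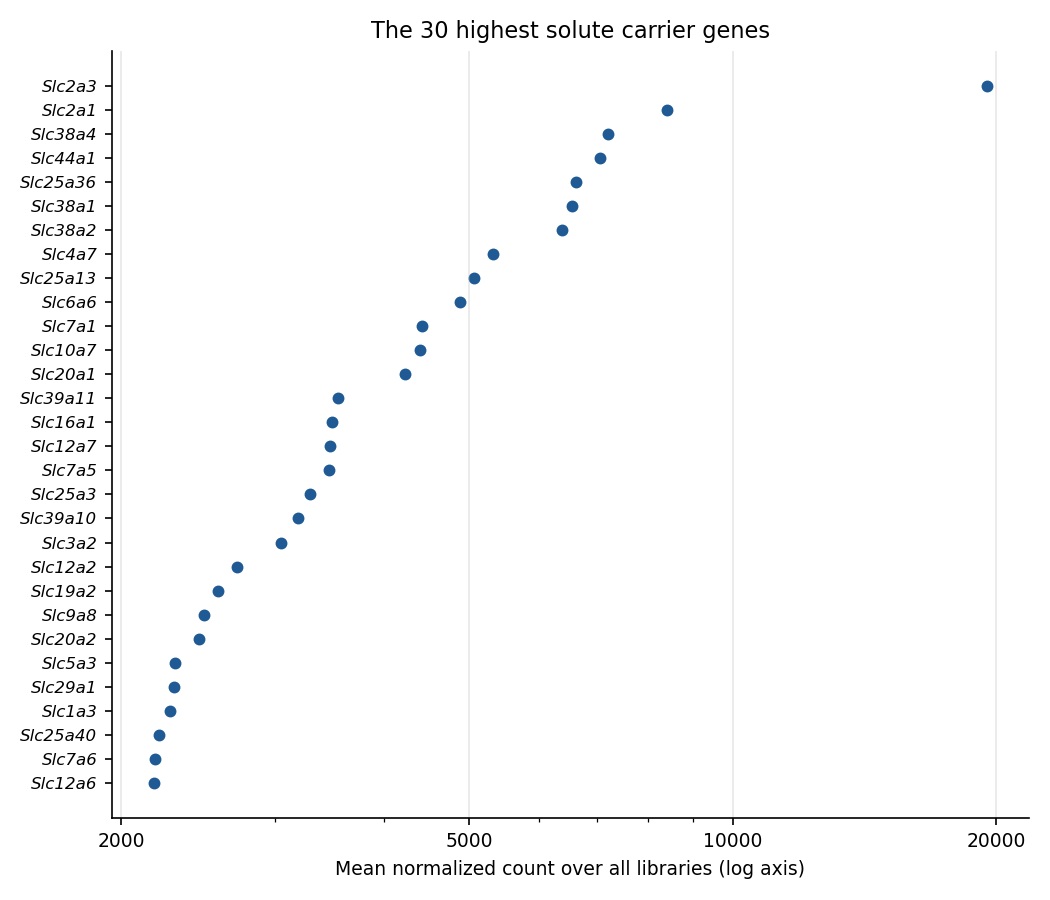
Mean normalized count over all 16 libraries (x axis, log scale) of the 30 solute carrier genes with the highest level, 1 point per gene. Slc2a3 at 19536 stood apart from Slc2a1 at 8416, and the genes below formed a gradual series.

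Few other genes of the sugar class were members. This class was set by family and holds Slc2, Slc5, Slc45 and Slc50. Its 12 Slc5 genes belong to a family that also carries inositol, vitamins and anions. In the class, 9 of 29 measured genes (31.0%) reached 100, beside 31.4% for the organic ion class. This order depends on the minimum. At 50 the shares were 48.3% for the sugar class and 40.0% for organic ions, and at 200 they were 24.1% and 11.4%. Only 3 of 12 Slc2 genes reached 100, and after Slc2a3 and Slc2a1 came Slc2a8, a transporter of internal membranes, at 197. Slc2a12, Slc2a4 and Slc2a2 were below, at 95.5, 74.7 and 1.19, where Slc2a4 encodes the insulin-responsive GLUT4 and Slc2a2 the liver and islet GLUT2. Slc5a3, the sodium-coupled inositol transporter, was at 2303 and Slc45a4 at 1661.

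The amino acid class was set by family too, and its 20 Slc6 genes belong to a family that also carries neurotransmitters. In this class, 34 of 63 genes (54.0%) were at 100 or more. The member median of 937 was the highest of the classes of carriers. That median leaves out the genes under the minimum. Over all 63 genes it was 137, while the metal class was highest by this measure, at 474. The Slc38 family gave 8 of its 11 genes, among them the lysosomal arginine sensor Slc38a9 at 1628. Of the heteromeric transporters, the light chain Slc7a5, which carries leucine and other large neutral amino acids, was at 3456 and its heavy chain Slc3a2 at 3043. Slc7a6 and Slc7a7, the y+L light chains, were at 2189 and 1821, and Slc7a8 was at 287. The cationic amino acid transporters Slc7a1 and Slc7a2 were at 4414 and 926. The other heavy chain, Slc3a1, was at 41.5 and the cystine light chain Slc7a11 at 47.6, so both lay under the minimum. Only 6 of 14 Slc7 genes were members. The median of these members was 2005, while that of all 14 measured Slc7 genes was 54.8. In the Slc6 family, 9 of 20 genes were members, led by Slc6a6 and the creatine transporter Slc6a8 at 1551, followed by Slc6a15 at 398. The plasma membrane glutamate and neutral amino acid transporters Slc1a3, Slc1a5, Slc1a4 and Slc1a1 were at 2273, 1562, 976 and 948.

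**Figure D2:**
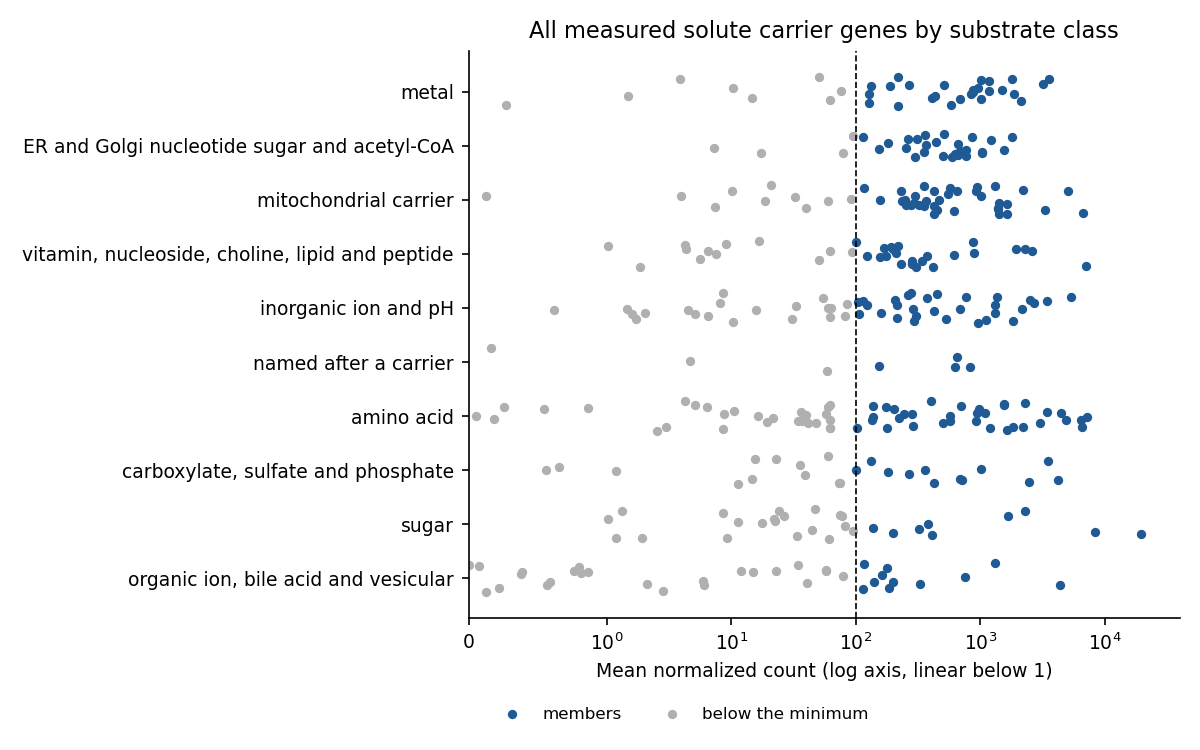
Mean normalized count (x axis, log scale that is linear below 1) of all 354 measured solute carrier genes by substrate class, 1 point per gene, with vertical scatter within a class only for visibility. The dashed line is the minimum of 100. The share of genes to its right ran between 31.0% for the sugar class and 86.7% for the ER and Golgi class.

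Mitochondrial carriers, most of which exchange metabolites across the inner membrane, were represented broadly, with 36 of 46 Slc25 genes (78.3%) at 100 or more. This class was also set by family and holds every Slc25 gene, so not each one need be such a carrier. Besides Slc25a36 and Slc25a13, the phosphate carrier Slc25a3 was at 3291, Slc25a40 at 2209, the S-adenosylmethionine carrier Slc25a26 at 1636, and the ADP/ATP carriers Slc25a5 and Slc25a4 at 1633 and 1410. Slc25a31, the ADP/ATP carrier of germ cells, was at 59.7. The 2 aspartate/glutamate carriers differed, with Slc25a13 at 5060 and Slc25a12 at 1424. The carnitine carrier Slc25a20 was at 1385, the citrate carrier Slc25a1 at 295 and the mitochondrial glutamate carriers Slc25a22 and Slc25a18 at 157 and 253. Reads from Slc25a4 and Slc25a5 could be shared between these close paralogs, since the study states a filter for uniquely mapped reads without making clear whether it covered the RNA-seq.

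Carriers of the endoplasmic reticulum (ER) and Golgi supply nucleotide sugars and acetyl-CoA for the modification of proteins. The class was set by family and holds Slc33, Slc35 with relatives of the nucleotide sugar carriers, and the sugar-phosphate exchangers Slc37. Not every gene in it therefore carries nucleotide sugars or acetyl-CoA. Of its genes, 26 of 30 (86.7%) were members, the highest share of any class, although none exceeded 1810, the mean of Slc37a3. The family with the second most members, Slc35, gave 22 of 25, led by the UDP-N-acetylglucosamine carrier Slc35a3 at 1539, with Slc35f2 at 1209 and Slc35e2 at 1034. The ER glucose-6-phosphate carrier Slc37a4 was just below the minimum at 95.7.

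Metal carriers gave 26 of 34 genes (76.5%) with a median of 855. The zinc importers Slc39a11, Slc39a10 and Slc39a14 were at 3542, 3187 and 1856, and 10 of 14 Slc39 genes were members. On the export side, 7 of 10 Slc30 genes were members, and Slc30a7, which loads zinc into the secretory pathway, was at 2114. The high-affinity copper importer Slc31a1 was at 1175, the iron importer Slc11a2 at 1011 and the iron exporter Slc40a1 at 218.

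Of the ion and pH carriers, 30 of 50 genes (60.0%) were members. After Slc4a7 came the potassium-chloride cotransporter Slc12a7 at 3464, the sodium-potassium-chloride cotransporter Slc12a2 at 2713 and the Golgi sodium/proton exchanger Slc9a8 at 2487. Among carriers of carboxylates, sulfate and phosphate, 12 of 24 (50.0%) were members, and both Slc20 phosphate transporters, which are also retrovirus receptors, were high, Slc20a1 at 4226 and Slc20a2 at 2453. The lactate transporters Slc16a1 and Slc16a3 were at 3482 and 682. Slc13a5, a citrate importer, was at 1005.

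In the class of vitamins, nucleosides, choline, lipids and peptides, 24 of 36 genes (66.7%) were members, with a median of 283. Slc44a1 led it, followed by the thiamine transporter Slc19a2 at 2584, the nucleoside transporter Slc29a1 at 2298 and the ascorbate transporter Slc23a2 at 1933, and all 5 Slc44 genes were members. Organic ion, bile acid and vesicular carriers had 11 of 35 genes (31.4%) and a median of 184. Of these only Slc10a7, an orphan relative of the bile acid carriers, at 4393 and Slc22a23 at 1314 passed 1000, followed by the lysosomal sialic acid carrier Slc17a5 at 755 and Slc17a9 at 329. No member came from the Slc14, Slc32, Slc34 and Slc51 families, while 47 of the 51 families measured had one. The other 4 members are named after a carrier without being one: the scaffold proteins Slc9a3r1 and Slc9a3r2 were at 824 and 154, Slc4a1ap at 647 and Slc7a6os at 628.

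Other transport genes were measured in the same libraries. The chaperones of the lactate transporters, Bsg and Emb, were at 3199 and 2072, and Nptn, a close relative of Bsg, was at 5330. The list of P-type ATPase genes holds lipid flippases and copper pumps beside the pumps that make ion gradients. It also counts the beta subunit genes Atp1b1 at 3483 and Atp1b2 at 435, which are not P-type ATPases themselves. In this list, 27 of 34 genes were at 100 or more with a median of 1147, against 212 of 354 and 512 for the solute carriers. ABC transporters gave 21 of 42 and aquaporins 2 of 12. A chosen list of 18 carriers of the same superfamily with other symbols, which is not a full count, had 17 measured. Of these, 16 reached 100, with the phosphate exporter Xpr1 the highest at 3847.

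Genes at the edge of the minimum were close to each other in level. The 5 members just above it were Slc19a3 at 100.8, Slc13a4 at 100.9, Slc6a14 at 103.1, Slc26a6 at 104.4 and Slc9b2 at 106.7. The 5 genes just below were Slc37a4 at 95.7, Slc2a12 at 95.5, Slc23a1 at 93.3, Slc25a43 at 91.4 and Slc26a10 at 85.2. With no spread known, the order of these 10 genes is uncertain.

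A longer gene collects more reads, so levels of different genes were also set per length. All 212 members matched a GENCODE transcript model, with a median transcript length of 3.19 kb and a median genomic span of 29.2 kb. Across the 212 members, which share the same libraries, the Spearman correlation of the mean was 0.21 with transcript length and 0.24 with span. The same correlations were 0.35 and 0.45 for the 11092 genes at 100 or more with a model. Per kb of transcript, Slc2a3 was again highest at 4935 mean counts per kb, followed by Slc10a7 at 4678, Slc2a1 at 2582, Slc44a1 at 2271, Slc38a1 at 2056 and Slc25a3 at 2042. The value of Slc10a7 rests on a matched transcript model of 0.939 kb, the shortest of all members. Of the 10 highest genes by mean, 7 were also among the 10 highest per kb of transcript, and 3 were among the 10 highest per kb of span. Whether intronic reads entered the counts is not given in the sources used here, so both scales are shown. Per kb of span, Slc2a3 at 1308, Slc38a2 at 518, Slc25a5 at 517, Slc25a3 at 440 and Slc39a7 at 413 led. The largest moves in rank per kb of transcript were those of Slc8a1, a sodium/calcium exchanger, by 118 places down, Slc4a8 by 86 down, Slc50a1 by 74 up, Slc5a3 by 61 down and Slc39a13 by 57 up. These moves rest on matched transcript models of 18.5, 11.8, 1.02, 10.9 and 1.29 kb, in that order. The 18.5 kb model of Slc8a1 was the longest of all members. By span, Slc39a11 moved 140 places down and Slc50a1 152 up. Slc39a11 was then at 11.0 mean counts per kb, below Slc39a10 at 68.5 and Slc39a14 at 41.1.

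**Figure D3:**
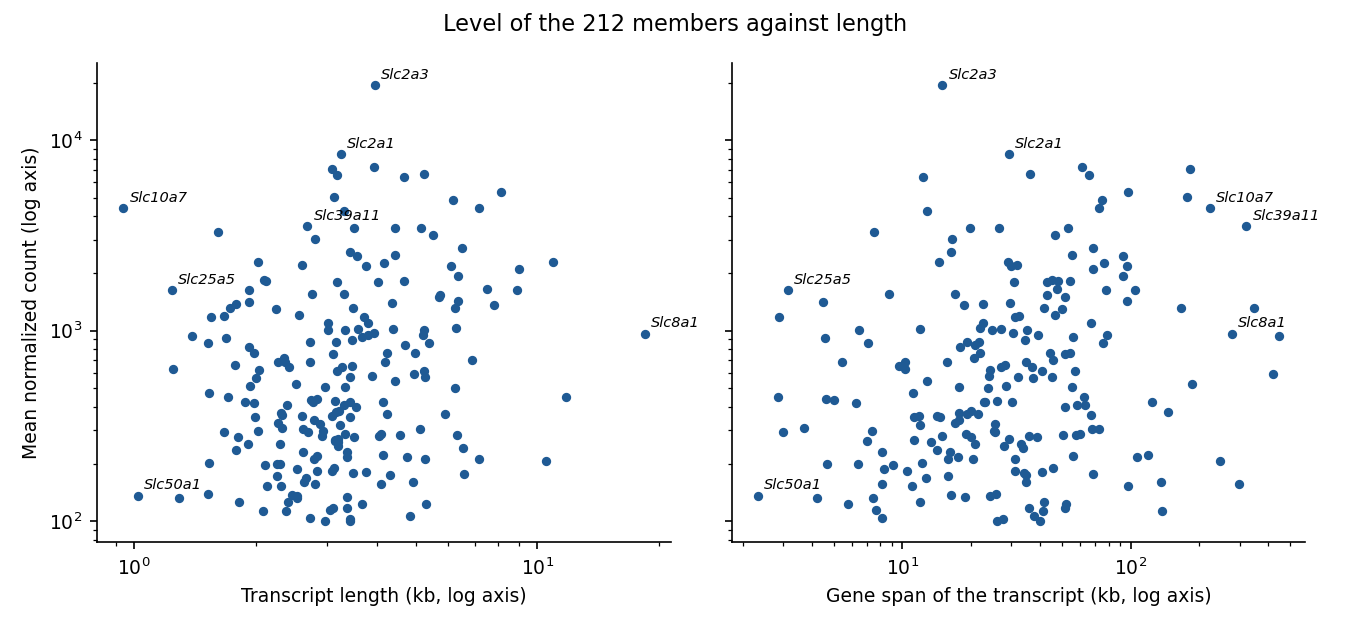
Mean normalized count (y axis, log scale) against transcript length (left) and genomic span (right) in kb on log scales, 1 point for each of the 212 members, with 7 genes named. Slc2a3 and Slc2a1 stood at the top, at medium transcript length and at spans of 14.9 and 29.3 kb. The Spearman correlations were 0.21 and 0.24.

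Neighbouring genes could touch some of these values. Of the members, 94 overlapped another annotated gene and 32 overlapped one that was also measured, always on the opposite strand. In 9 of these the overlapping gene was the higher one, as for Slc19a1 at 371 beside Col18a1 at 5958, Slc18a1 at 117 beside Atp6v1b2 at 1612, and Slc39a13 at 133 beside Psmc3 at 1032. The libraries were made with a directional kit, but the strand setting of the counting is not given in the sources used here, so these low members are uncertain. The level of Slc5a3 is uncertain too, because it overlaps Mrps6 on the same strand, for which no mean was found under that symbol. For 19 members the tables held more than 1 entry, and the lowest of these was between 1.01- and 14.9-fold below the highest. The largest gap was for Slc25a53, at 615 and 41.4.

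Members lay on 20 chromosomes, with 20 genes on chromosome 11 and 9 on the X chromosome. Chromosome 7 held 6 of them (2.83%), against 7.17% of all genes at 100 or more, and only 14 of the 354 measured solute carrier genes lay there. Chromosome 3 went the other way, with 7.55% of members against 4.73%, and 24 of the 354 measured solute carrier genes lay there. There were 9 pairs of members within 100 kb of each other. Slc38a1 (chr15:96575987-96641962 in mm10) and Slc38a2 (chr15:96687392-96699730), 45430 bases apart, were both high, at 6545 and 6390, and Slc38a4 lay further along the same chromosome (chr15:96994823-97055956). By contrast the sodium/proton exchangers Slc9b2 and Slc9b1, 2647 bases apart on chromosome 3, were at 107 and 1305, and the copper transporters Slc31a2 and Slc31a1 were at 127 and 1175.

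CpG content was not used by the rule. Over the first 300 nt of the transcript, 151 of 212 members (71.2%) had an observed over expected CpG ratio of at least 0.6, with a median of 0.74. Among the 142 solute carrier genes below the minimum, 33 (23.2%) did, with a median of 0.38. Over all genes of the series, the same share was 74.6% at 100 or more and 22.9% below, so the members and the other expressed genes had similar values. Members with a CpG-rich start had a median level of 575 (151 genes), against 409 for the other 61. The highest member, Slc2a3, was one of the 61, with a ratio of 0.40, and so was Slc4a7 with 0.29. These 300 nt are spliced sequence of a single transcript model per gene. They hold no sequence before the start, so they do not give the CpG content of the promoters. Slc2a3 had no promoter window, and its gene record reached beyond the start of the model used. Slc38a2 had the highest ratio of all members, 1.37. The RefSeq promoter window was found for 166 of 212 members (78.3%), which is under the 80% needed for a statement over the set, so promoter windows are shown for single genes only.

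**Figure D4:**
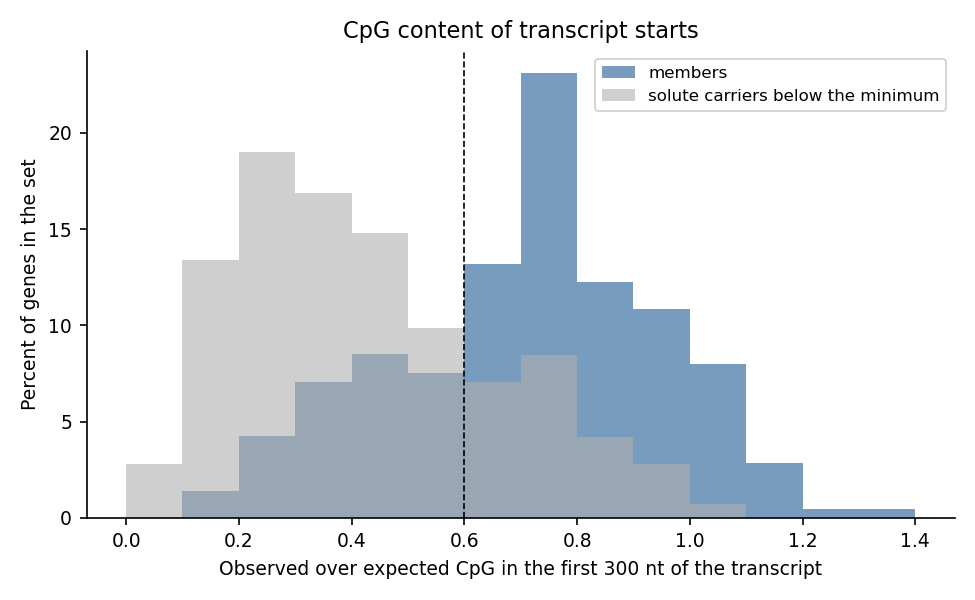
Observed over expected CpG ratio in the first 300 nt of the transcript (x axis) for the 212 members and the 142 solute carrier genes below the minimum, as percent of the genes of each set (y axis). The dashed line marks 0.6, which 71.2% of members and 23.2% of the other solute carrier genes reached.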

How the data were processed

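Nuclear RNA was depleted of rRNA, and directional libraries were sequenced as paired ends. The authors used Bowtie 2 to discard rRNA reads and STAR to place the others on mm10, dropped duplicates and ran DESeq2 on a nonredundant mm10 gene set, with versions not given in the sources used here. Each of the 3 deposited tables holds 1 comparison with wild-type cells. Its 6 columns of the authors' fold changes, standard errors, test statistics and p-values were not used. The value used is the deposited signal, the authors' mean of DESeq2-normalized counts over all 16 libraries, identical in the 3 tables. It has no replicate error and no depth.

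Of 20633 entries, 20450 were given a symbol from the RefSeq GRCm38.p6 table and 110 from GENCODE. Lengths, overlaps and transcript starts came from GENCODE vM21, and promoter windows from RefSeq GRCm38.p6. The CpG ratio is the CG count times the length over the product of the C and G counts. Python 3.11.15, numpy 2.4.6, pandas 2.3.3 and matplotlib 3.10.9 were used, and the symbol pattern, the minimum and the CpG functions were tested on simulated data. Named genes were the 10 highest, the 4 highest of each class, the leading 3 of the largest families, the 5 genes on each side of the minimum, the 5 largest rank moves per kb, partner subunits, markers and members of the Slc2, Slc3, Slc7, Slc16, Slc20 and Slc25 families. Other genes named were chosen after their values were seen. Members, classes and lists were chosen with earlier results of these data known. Some solute carrier genes are not reported here. Alternatives were other minimums, other ways to combine entries and levels per length.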

Additional observations from a re-analysis of the deposited data

How the results depend on the processing

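Under a minimum of 50 the number of genes was 246, their share of the measured solute carrier genes 69.5% and their median 389, and under a minimum of 200 these were 173, 48.9% and 689. With the lowest entry of each symbol the number was 210 and with the sum of entries 213, with shares of 59.3% and 60.2% and medians of 507 and 515, where only 19 members had more than 1 entry. Class shares moved with the minimum as well. At 50 and 200 they were 48.3% and 24.1% for the sugar class and 40.0% and 11.4% for organic ions. For the vitamin class they were 75% and 50%. Of the 10 highest genes, 7 remained among the 10 highest per kb of transcript and 3 per kb of span. The transcript start was chosen in place of the promoter window after the data were examined, and with a CpG ratio of at least 0.75 the share of members was 47.6%, against 13.4% of the other solute carrier genes and 53.7% of all genes at 100 or more. The planned share over promoter windows was not run, since 46 members had no window. No paired analysis was possible because the tables hold no value per library, and for the same reason no library could be left out.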
